A study of Rattus norvegicus with 2 samples.

Results

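Ribosomes are built in the nucleolus. RNA polymerase I makes the long precursor of the ribosomal RNAs there, small nucleolar ribonucleoproteins (snoRNPs) direct its methylation and pseudouridylation, and a large set of assembly factors, helicases and GTPases fold and cut it into the small and the large subunit. In liver the pathway is known to be raised when hepatocytes grow, as after partial hepatectomy, and many of its genes are known targets of the transcription factor MYC. When the nucleolus stalls, the free ribosomal proteins Rpl5 and Rpl11 are known to bind the ubiquitin ligase Mdm2.

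The genes described are 49 factors of this pathway, chosen by name and not by their values, and sorted here by role: 8 snoRNP proteins, 6 abundant nucleolar proteins, 5 RNA polymerase I genes, 13 small subunit factors and 17 large subunit factors. Of the 49 genes, 42 had at least 1 probe whose RefSeq transcript accession names them, with 55 probes in all, out of 13667 genes named on the array. The other 7 (Nhp2, Npm3, Nop14, Rrp12, Tsr1, Wdr74 and Rrp1b) had no probe that could be named and have no expression value here, though those with a promoter window are counted among the promoters below. A probe is called detected where the scanner software flagged its signal as well above background, and a gene measured where a probe was detected on both arrays. That held for 37 of the 42, against 7803 of all 13667 named genes.

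Liver RNA came from Sprague Dawley rats given senecionine, a pyrrolizidine alkaloid that liver enzymes turn into reactive pyrroles, into the stomach at 35 mg/kg, and from Sprague Dawley rats given sodium chloride. Livers of both groups were taken 36 h after dosing. Each group is a mixture of 3 tissue samples, read on 1 single-colour Agilent array. The design text speaks of independent experiments, which is read here as these 2 arrays, and it could mean something else. With 1 array per group there is no replicate error and no test: every difference below is a difference between 2 pooled samples. Age and sex are not stated in the sources used here.

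Signals are given first as processed intensity units, which are not scaled between arrays. The 75th percentile of the non-control spots was 134 units on the senecionine array and 101 units on the control array, and the flag was set for 64.1% of spots on the senecionine array and 44.4% on the control array. The log2 ratio (senecionine minus control) is taken after each array's 75th percentile was subtracted on the log2 scale. The value after ± is the software's own spot error carried to the ratio, and its median over measured genes was 0.21. For bright probes of different genes it was nearly the same, as for Fbl and Npm1 (0.204 each). Probes of 1 gene could differ by far more, as those of Nolc1 (1.70 and 0.01). A ratio within its spot error is therefore described as small, and the spot error is no test. A log2 ratio of 1, a 2-fold difference, is the size at which genes were counted. Probes differ in brightness for reasons of their own, so signals are compared between arrays and not between genes.

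The ribosome biogenesis genes stood mostly higher after senecionine. Of the 37 measured genes, 9 were higher by 2-fold or more and 0 lower by as much, where 11.2% of all measured genes were higher and 17.7% lower by that size. The 9 make up 24.3% of the 37. A log2 ratio above 0 was found for 32 of the 37, against 43.7% of all measured genes. The median log2 ratio of the 37 was 0.62, and that of all 7803 measured genes -0.14. At 1.5-fold, 21 of the 37 were higher and 2 lower, beside 21.0% and 31.1% of all measured genes, and at 3-fold 3 were higher and 0 lower, beside 4.69% and 7.88%. The shift was made of many moderate ratios: the highest was 1.79 and the lowest -0.93. In pooled tissue, more cells of a type and more RNA per cell cannot be told apart, and the same holds for fewer cells and less RNA.

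**Figure D1:**
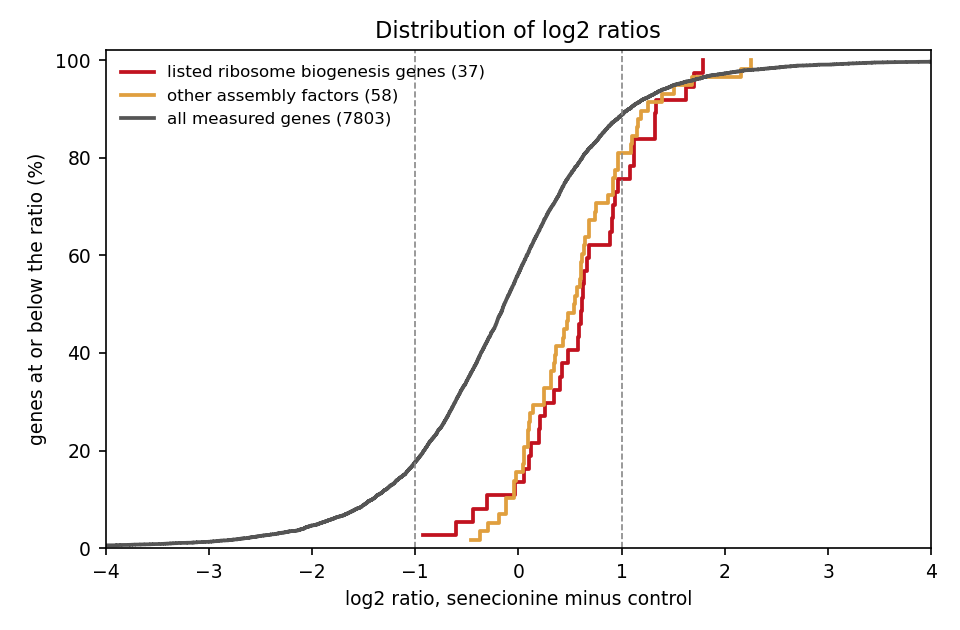
Cumulative share of genes (vertical axis, %) at or below each log2 ratio, senecionine minus control (horizontal axis), for the 37 measured ribosome biogenesis genes, 58 other assembly factors and all 7803 measured genes. Dashed lines mark 2-fold. The curves of both ribosome lists lie to the right of the curve of all genes over most of the range, with medians of 0.62 and 0.54 against -0.14. They cross it at the upper end: the lists end at ratios of 1.79 and 2.26, and all genes at 6.57.

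The 9 genes at least 2-fold higher were Ncl, Nolc1, Nop58, Ebna1bp2, Nop56, Ddx21, Fbl, Npm1 and Mybbp1a. Most of them fall in the roles of snoRNP proteins (4 of 6 measured) and abundant nucleolar proteins (4 of 5 measured). Large subunit factors held 1 of 13 (7.69%), and neither the small subunit factors (0 of 8) nor the RNA polymerase I genes (0 of 5) held any. Of all measured genes 11.2% were higher by that size. At that share, roles with so few genes would hold few such genes or none. The medians by role were 1.23 for snoRNP proteins, 1.12 for nucleolar proteins, 0.59 for large subunit factors, 0.54 for small subunit factors and 0.20 for RNA polymerase I genes. The snoRNP median was 0.57 when each gene was represented by its probe nearest to no change, below that of the large subunit factors. With 1 array per group these differences between roles were not tested.

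**Figure D2:**
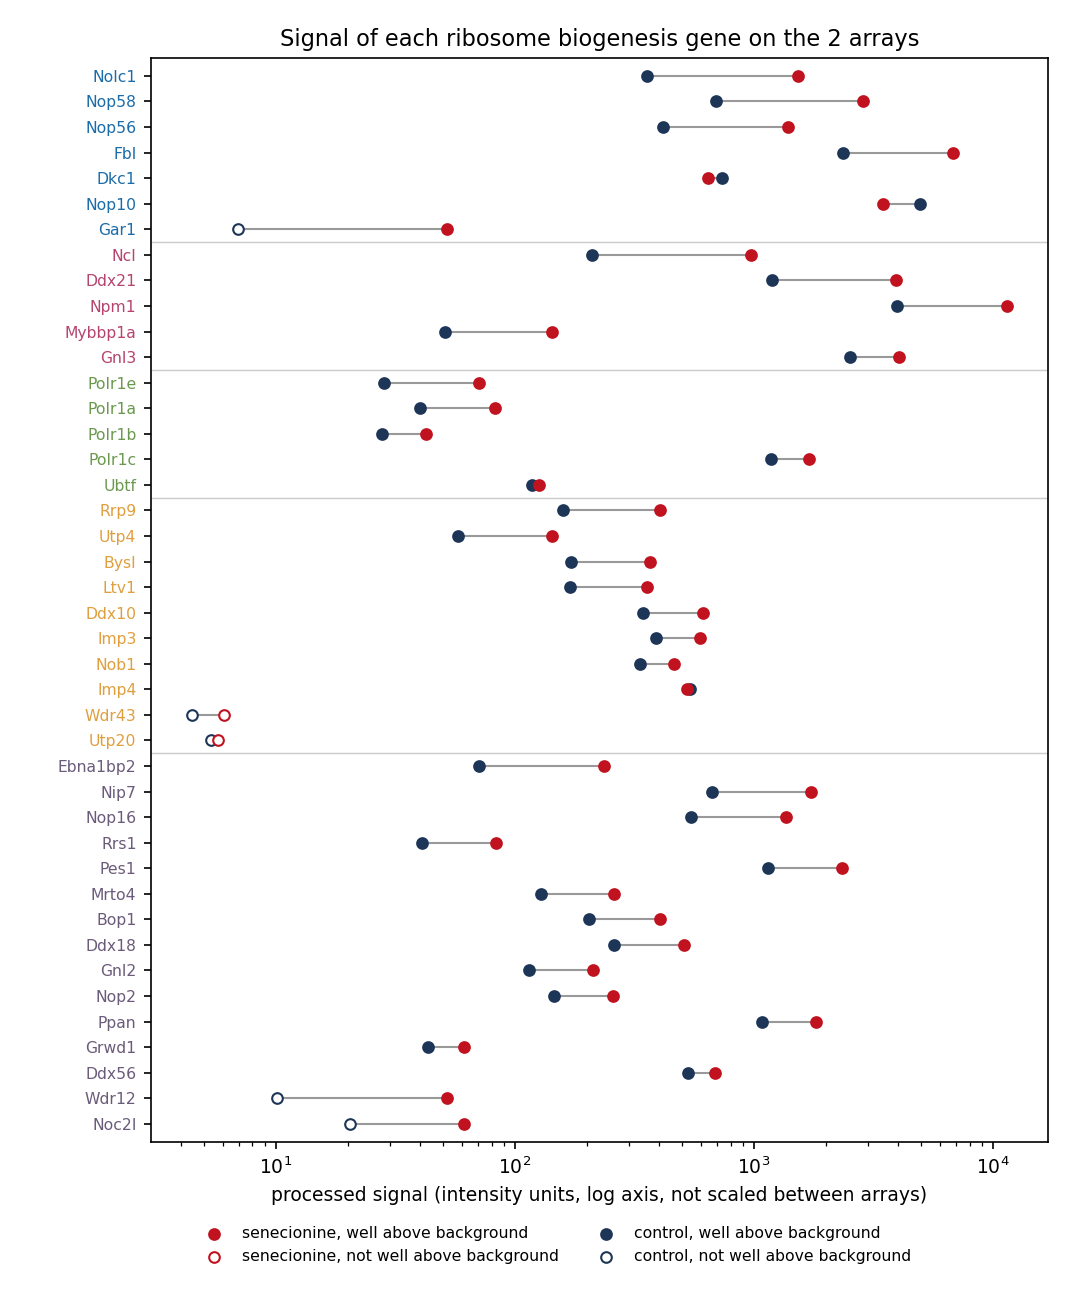
Processed signal (horizontal axis, intensity units, log scale, not scaled between arrays) of the 42 named genes on the senecionine array (red) and the control array (dark blue). Each gene is shown by the probe that represents it, open circles are signals not detected, and the colours of the gene names mark the roles from snoRNP proteins at the top to large subunit factors at the bottom. The senecionine signal lies right of the control signal for nearly all genes, and left of it for Dkc1, Nop10 and Imp4 alone.

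Promoter sequence was looked at because the genes stood to the same side. RefSeq promoter windows of assembly GRCr8, which run from 250 bases before to 50 bases after a gene's start, were found for 45 of the 49 genes. The palindrome CACGTG, the E-box known to be bound by MYC with its partner MAX, was present in 15 of the 45 windows (33.3%), against 6.65% of 27457 windows of all genes 9.23% of 6437 windows of measured genes and 28.2% of 85 windows of the further assembly factors described below. The motif CCGGAAGT, the core known to be bound by ETS factors, was present on either strand in 18 of the 45 (40.0%), against 4.01% of all windows, 8.65% of those of measured genes and 30.6% of those of the further assembly factors. Both strands were searched, and the motifs overlap nowhere in the windows printed here. They were chosen after the data were examined, and a match is a run of letters and no proof of binding.

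The E-box is shown in capitals with its flanks, on the gene's strand, for 9 measured genes, to let its place and its flanks be compared.
Fbl (chr1:92597420-92597441, plus strand): cttttttcCACGTGtgaaagcc
Ebna1bp2 (chr5:137433556-137433577, plus strand): cttgctggCACGTGgagtggca
Utp4 (chr19:51702208-51702229, plus strand): cacgcgcgCACGTGggaccggg
Bysl (chr9:20880365-20880386, plus strand): cggcttcaCACGTGtaaacttt
Ltv1 (chr1:9398605-9398626, minus strand): tgtctaccCACGTGtagagctg
Pes1 (chr14:83074288-83074309, plus strand): aagcggggCACGTGcggtagga
Ddx18 (chr13:35295972-35295993, minus strand): gaactgcgCACGTGcatctgtc
Nop2 (chr4:159618996-159619015, plus strand): cccaagtgCACGTGgagcgg
Gnl3 (chr16:6219794-6219815, minus strand): ccagttcgCACGTGgcgcccga
In Fbl the E-box began 22 bases into the gene, in Ebna1bp2 31 bases, in Bysl 33 bases and in Nop2 39 bases. In Ddx18 it began 13 bases before the start, in Utp4 and Gnl3 25 bases, in Pes1 50 bases and in Ltv1 61 bases.

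Whole windows are shown for 3 genes that differ in motif and in ratio: Mybbp1a, with 2 E-boxes and a ratio just past 2-fold, Nop58, with an ETS core and one of the highest ratios, and Dkc1, with an E-box and 2 ETS cores but a ratio below 0. Capitals mark the motifs, and ACTTCCGG is the ETS core on the other strand.
Mybbp1a (chr10:57555208-57555507, plus strand): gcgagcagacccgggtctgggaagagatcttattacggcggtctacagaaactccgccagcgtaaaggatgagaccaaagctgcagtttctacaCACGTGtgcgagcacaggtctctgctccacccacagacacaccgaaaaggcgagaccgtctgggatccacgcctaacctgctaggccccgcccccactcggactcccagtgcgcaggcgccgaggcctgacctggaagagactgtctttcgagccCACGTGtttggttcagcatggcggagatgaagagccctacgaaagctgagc
Nop58 (chr9:68614824-68615123, plus strand): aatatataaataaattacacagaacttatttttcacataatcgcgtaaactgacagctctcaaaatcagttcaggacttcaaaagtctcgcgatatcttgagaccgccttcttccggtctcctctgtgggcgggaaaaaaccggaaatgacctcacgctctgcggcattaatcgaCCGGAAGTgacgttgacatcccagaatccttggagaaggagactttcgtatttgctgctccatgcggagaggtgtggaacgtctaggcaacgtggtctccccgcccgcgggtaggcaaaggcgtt
Dkc1 (chrX:157751401-157751700, plus strand): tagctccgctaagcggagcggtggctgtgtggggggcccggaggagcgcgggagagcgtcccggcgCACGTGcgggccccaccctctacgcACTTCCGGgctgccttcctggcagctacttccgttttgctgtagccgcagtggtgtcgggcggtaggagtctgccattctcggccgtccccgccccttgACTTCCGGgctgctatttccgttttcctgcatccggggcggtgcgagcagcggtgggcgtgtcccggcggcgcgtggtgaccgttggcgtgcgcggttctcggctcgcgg

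Genes with and without the E-box had close median ratios, and those with the ETS core had a higher median than those without it; neither difference was tested. The 11 measured genes with an E-box had a median log2 ratio of 0.66 and included 3 at least 2-fold higher, and the 23 measured genes with a window but no E-box had a median of 0.61 and included 6. The 13 with an ETS core had a median of 0.89 with 4 higher, and the 21 without it one of 0.57 with 5 higher.

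Among the snoRNP proteins, those of the box C/D particles, which methylate ribosomal RNA, stood higher. Of the box H/ACA particles, which convert uridine to pseudouridine, 2 proteins were measured and both had ratios below 0. The scaffold protein Nop58 gave 2861 units on the senecionine array and 698 on the control array, a 3.09-fold higher level (log2 ratio 1.63 ± 0.20). Its partner Nop56 gave 1385 and 416 units, 2.51-fold higher (1.33 ± 0.20). Fbl (fibrillarin), the methyltransferase itself, gave 6797 and 2353 units, 2.18-fold higher (1.12 ± 0.20). These 3 proteins were past 2-fold on their representing probes, and Snu13, the other core protein of the box C/D particle and one of the further assembly factors, was within 2-fold (0.94 ± 0.20). A second Nop56 probe was detected after senecionine only, at 91.1 units against 19.1 units.

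In the H/ACA group, Dkc1 (dyskerin), the pseudouridine synthase, gave 641 units on the senecionine array and 737 on the control array, 1.53-fold lower (log2 ratio -0.61 ± 0.20). The small protein Nop10, which binds dyskerin, gave 3473 and 4976 units, 1.90-fold lower (-0.93 ± 0.20), the lowest ratio of the 37. Gar1, of the same particle, gave 52.2 units on the senecionine array, and its 6.98 units on the control array did not pass as detected. Against the lowest detected signal of the control array, Gar1 was 1.91-fold higher, a nominal bound, since some undetected probes were brighter than that signal. Dkc1 and Nop10 were thus the 2 genes past 1.5-fold on the lower side, and Gar1 stood on the other side by its nominal bound only. Dyskerin, Nop10 and Gar1 are also known as parts of telomerase.

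Nolc1 (Nopp140), a chaperone that carries snoRNPs between the nucleolus and Cajal bodies, had probes that disagreed. Its brightest probe gave 1534 units on the senecionine array and 356 on the control array, 3.25-fold higher (log2 ratio 1.70 ± 0.21). A second probe gave 570 and 426 units, a log2 ratio of 0.01 ± 0.20. Another probe, detected after senecionine only, gave 85.7 and 10.1 units. The 2-fold call of Nolc1 rests on the choice of probe, and with the mean of its 2 measured probes it was not past 2-fold. The snoRNP median was 0.99 with means over probes, where 11.0% of all measured genes were higher by 2-fold or more, and with the probe nearest to no change that share was 10.4%.

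**Figure D3:**
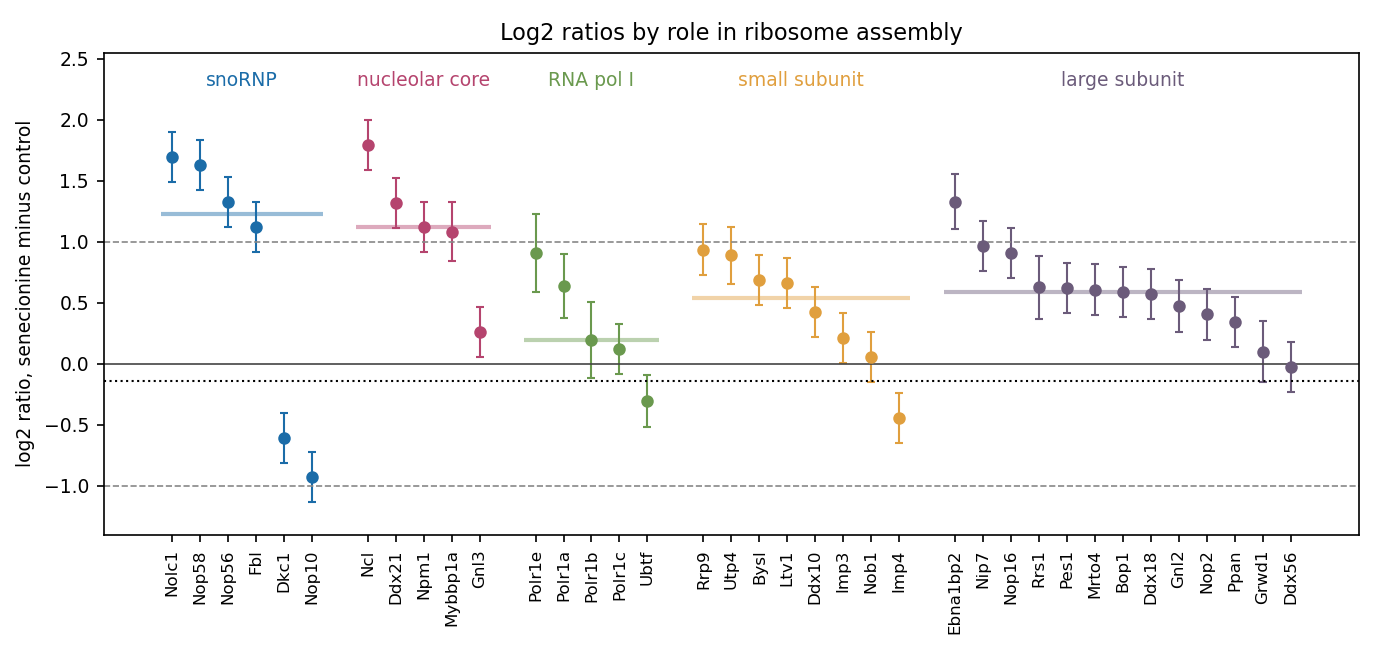
Log2 ratio, senecionine minus control (vertical axis), of the 37 measured genes, grouped by role and ordered within each role. Points are the representing probes, bars the spot error, coloured lines the median of each role, dashed lines 2-fold and the dotted line the median of all measured genes (-0.14). The snoRNP genes split into 4 points above 1 and 2 points below 0, and all RNA polymerase I points lie within 2-fold.

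The abundant nucleolar proteins gave the highest ratio of the set. Ncl (nucleolin), which binds precursor RNA and chromatin of the ribosomal genes, gave 971 units on the senecionine array and 211 on the control array, 3.46-fold higher (log2 ratio 1.79 ± 0.21). The helicase Ddx21 gave 3950 and 1192 units, 2.50-fold higher (1.32 ± 0.20), and a second probe gave 131 and 38.6 units with a ratio of 1.36 ± 0.26. The remaining Ddx21 probe was detected on neither array.

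Npm1 (nucleophosmin), a chaperone of histones and ribosomal proteins, was measured by 3 probes that stood to the same side. The brightest gave 11448 units on the senecionine array and 3971 on the control array, 2.17-fold higher (log2 ratio 1.12 ± 0.20). The other probes had log2 ratios of 1.26 ± 0.20 and 1.498 ± 0.20. Mybbp1a, a nucleolar partner of MYB that acts in processing of the precursor RNA, gave 144 and 51.1 units, 2.12-fold higher (1.08 ± 0.24), just past the 2-fold line. Gnl3 (nucleostemin), a GTPase that shuttles between nucleolus and nucleoplasm, gave 4034 and 2538 units, a log2 ratio of 0.26 ± 0.20, and was the nucleolar protein nearest to no change.

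RNA polymerase I genes were all within 2-fold. Polr1a, the largest subunit, gave 82.9 units on the senecionine array and 40.2 on the control array, a log2 ratio of 0.64 ± 0.26. Polr1b, which forms the catalytic core with it, gave 42.4 and 27.9 units, a ratio of 0.20 ± 0.31, smaller than its spot error. Polr1e, a peripheral subunit, gave 70.9 and 28.4 units and had the highest ratio of the role, 0.91 ± 0.32. These 3 genes were dim, and with normexp background correction, which starts from median spot and local background signals and adds an offset of 50 units, the ratio of Polr1e was -0.05.

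Polr1c, a subunit shared with RNA polymerase III, gave 1700 units on the senecionine array and 1178 on the control array, a log2 ratio of 0.12 ± 0.20. Its second probe had a ratio of 0.01 ± 0.20, so both were within their spot error. Ubtf, the factor that holds active ribosomal genes open and recruits the polymerase, gave 127 and 118 units, a ratio of -0.30 ± 0.21. Its second probe was detected after senecionine only, at 23.1 units against 13.5 units.

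The small subunit factors were mostly above 0 and within 2-fold, with 7 of 8 above 0. Rrp9, which binds the U3 snoRNA of the early processing complex, gave 406 units on the senecionine array and 160.0 on the control array, 1.91-fold higher (log2 ratio 0.94 ± 0.21). Utp4 (cirhin), a scaffold of that complex whose mutation in humans causes a childhood cirrhosis, gave 143 and 58.0 units, 1.85-fold higher (0.89 ± 0.23). Bysl and Ltv1, which act late in maturation and export of the small subunit, had ratios of 0.69 ± 0.21 and 0.66 ± 0.21. The helicase Ddx10 had a ratio of 0.42 ± 0.21. Ltv1 and Ddx10 each had a second probe detected on the senecionine array only.

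Within the small subunit group the partners Imp3 and Imp4, both of the U3 particle, stood to opposite sides of 0. Imp3 gave 597 units on the senecionine array and 390 on the control array, a log2 ratio of 0.21 ± 0.20. Imp4 gave 525 and 539 units, a ratio of -0.44 ± 0.20. Nob1, the nuclease of the last cut of the small subunit RNA, gave 463 and 335 units, a ratio of 0.06 ± 0.20, within its spot error. Utp20 (3 probes) and Wdr43 (1 probe), both of the early complex, were detected on neither array and have no ratio here.

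Of the large subunit factors, 12 of 13 were above 0 and Ebna1bp2 was past 2-fold. Ebna1bp2, a nucleolar scaffold of early large subunit particles, gave 236 units on the senecionine array and 70.8 on the control array, 2.52-fold higher (log2 ratio 1.33 ± 0.23). Nip7, which binds precursor RNA, gave 1741 and 672 units, 1.96-fold higher (0.97 ± 0.20). Nop16 gave 1360 and 546 units, 1.88-fold higher (0.91 ± 0.20). Nip7 and Nop16 were the nearest of this role below the 2-fold line, and both passed it with quantile normalization, cyclic loess and normexp correction.

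The complex of Pes1, Bop1 and Wdr12, which is needed to process the large subunit RNA, had ratios above 0 for both measured genes. Pes1 gave 2340 units on the senecionine array and 1148 on the control array, a log2 ratio of 0.62 ± 0.20. Bop1 gave 407 and 204 units, a ratio of 0.59 ± 0.21. Wdr12 gave 52.0 units on the senecionine array and an undetected 10.1 units on the control array. Only a nominal bound of 1.91-fold higher can be given.

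Ratios close to that of this complex were given by Rrs1 (log2 ratio 0.63 ± 0.26), Mrto4 (0.61 ± 0.21) and the helicase Ddx18 (0.57 ± 0.21). The GTPase Gnl2, the RNA methyltransferase Nop2 and the assembly factor Ppan followed with 0.48 ± 0.21, 0.41 ± 0.21 and 0.35 ± 0.20. The histone and ribosomal protein chaperone Grwd1 (0.10 ± 0.25) and the helicase Ddx56 (-0.03 ± 0.20) were within their spot error. Noc2l, detected after senecionine only, gave 61.3 units there and 20.5 units in the control, a nominal bound of 2.25-fold higher after senecionine. Of all named genes 2612 were detected only after senecionine and 177 only in the control, so detection gives these genes no direction of its own, and a bound of at least 2-fold was reached by 12.2% of the 2612.

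The authors' deposited table, a list selected at 2-fold, holds 19 probes of 14 of these genes. All 19 are listed there as higher after senecionine, and none as lower, where the whole of the authors' deposited table has 4003 higher and 3401 lower. Beyond the 9 genes above it holds Nip7 (1.20 on the log2 scale), Nop16 (1.09), Ltv1 (1.32), Noc2l (1.21) and Wdr12 (1.85), all values of the authors' deposited table. The Ltv1 value is that of its second probe, while the probe that represents it here (0.66) is not held. The probes of Ltv1, Noc2l and Wdr12 in that table were undetected on the control array. How that table was scaled between arrays is not stated in the sources used here.

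Other genes of the pathway stood to the same side. From a list of 97 further assembly factors, 58 were measured, with a median log2 ratio of 0.54. Of these, 11 were at least 2-fold higher and 0 lower, 19.0% against the 11.2% of all measured genes. With normexp correction the share higher was 8.62%, close to the 7.86% of all measured genes. Rpf2, which brings the 5S ribosomal particle into the large subunit with Rrs1, gave 244 units on the senecionine array and 38.6 on the control array, 4.77-fold higher (2.26 ± 0.27). Brix1, of the same family, gave 308 and 52.3 units, 4.45-fold higher (2.15 ± 0.27). The kinase Riok1 and the small subunit factor Pno1, which binds Nob1, were 3.21-fold (1.68 ± 0.29) and 2.84-fold higher (1.51 ± 0.21, other probe 0.95). Detection after senecionine only held for 15 of the 78 with a named probe, a share close to the 19.1% of all named genes.

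**Figure D4:**
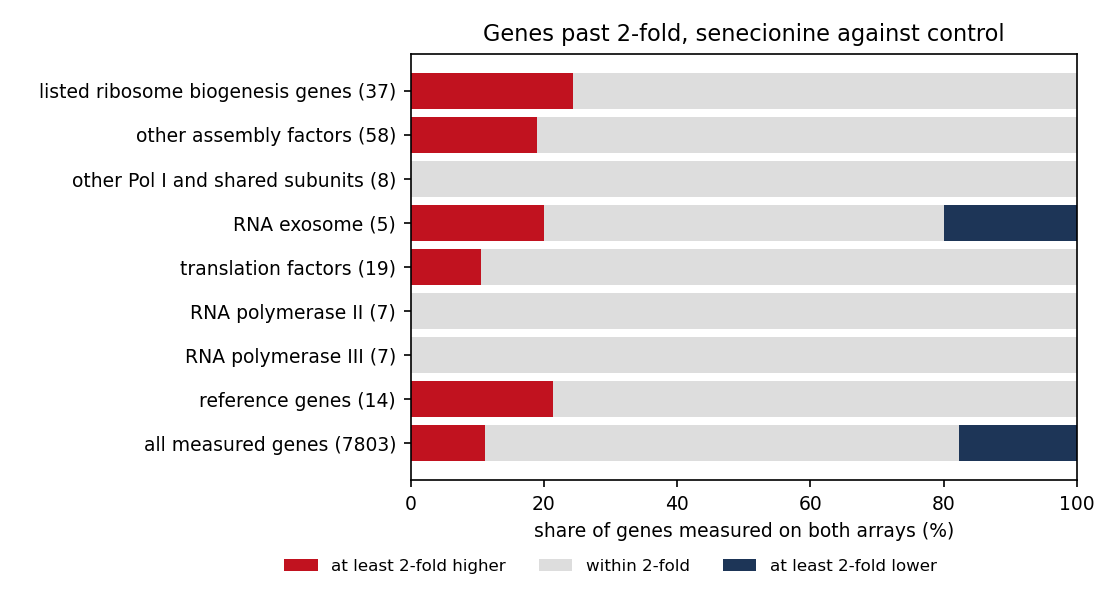
Share of measured genes (horizontal axis, %) that were at least 2-fold higher (red), within 2-fold (grey) or at least 2-fold lower (dark blue) after senecionine, for ribosome-related lists and all measured genes, with the number measured in brackets. The 37 ribosome biogenesis genes and the 58 other assembly factors have no genes past 2-fold on the lower side, where all measured genes have 17.7%.

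Lists of the other polymerases and of RNA decay differed less from 0. Of 8 further RNA polymerase I and shared subunit genes none was past 2-fold (median log2 ratio 0.18), and the same held for 7 RNA polymerase II genes (0.17) and 7 RNA polymerase III genes (-0.02). Polr3b, detected in the control only, gave 14.5 units on the senecionine array and 52.2 units on the control array, nominally 4.78-fold lower. Among the measured genes the most distant were Polr1f (0.71 ± 0.21, other probe 0.28), Polr2j (-0.89 ± 0.20) and Polr3k (-0.74 ± 0.20). Of 5 measured genes of the RNA exosome, which trims ribosomal precursor RNA, Exosc9 was 2.27-fold higher (1.18 ± 0.25) and Exosc5 2.10-fold lower (-1.07 ± 0.20). Of 19 translation factors 2 were at least 2-fold higher (10.5%, beside 11.2% of all measured genes) and 0 lower (median 0.47). These 2 were Eif1a (1.37 ± 0.21) and the cap-binding protein Eif4e (1.36 ± 0.20, other probe 0.80). Of 14 reference genes 3 were higher (21.4%) and 0 lower (median 0.16), led by Ywhaz (2.06 ± 0.21).

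Genes that connect the pathway to growth stood on both sides of 0. Myc, the transcription factor named above, gave 2389 units on the senecionine array and 286 on the control array, 6.29-fold higher (log2 ratio 2.65 ± 0.21). Of 10 measured genes of the list of MYC, its partners and known targets, 6 were above 0 and 4 below (median 0.34). Of the 10, 2 were at least 2-fold higher and 1 lower, beside 11.2% and 17.7% of all measured genes. Odc1, the first enzyme of polyamine synthesis, was 3.93-fold higher (1.97 ± 0.21, other probe 2.76), Nme1 had a ratio of 0.91 ± 0.20, and the mitochondrial enzyme Shmt2 was 3.09-fold lower (-1.63 ± 0.20). The list held genes past 2-fold on both sides.

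Genes known from nucleolar and cell stress included some of the highest ratios named here. Of 10 measured genes of this list 5 were at least 2-fold higher and 0 lower, beside 11.2% and 17.7% of all measured genes. Their log2 ratios ran from 0.02 to 5.37 (median 1.04). Mdm2 was 6.52-fold higher (log2 ratio 2.70 ± 0.21), the cell cycle inhibitor Cdkn1a 41.4-fold (5.37 ± 0.21), Ccng1 8.38-fold (3.07 ± 0.21) and Gdf15 16.3-fold (4.03 ± 0.33). The control signal of Gdf15, 23.5 units, was close to the lowest detected there, 20.6 units, so the size of its fold is uncertain. Rpl11 gave 16090 units on the senecionine array and 9623 on the control array, a ratio of 0.33 ± 0.20. Rpl5 gave 5321 and 1460 units, 2.75-fold higher (1.46 ± 0.20), but its other probes had ratios of 0.48 and 1.20, so its size is uncertain. Rpl5 and Rpl11 are of large gene families with many processed copies.

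Fbll1, a paralog of fibrillarin known from brain, went the other way from Fbl. Its probe gave 12.0 units on the senecionine array and 495 on the control array, 54.9-fold lower (log2 ratio -5.78 ± 0.33). The lowest detected signal of the senecionine array was 10.8 units, so the size of this fold is uncertain. Genes known from the nervous system were also lower: of 16 listed markers 9 were measured and 8 of them were at least 2-fold lower (median -2.80), among them Tubb3 (-4.32 ± 0.20) and Cck (-4.48 ± 0.25). The summed signal of those 9, in multiples of the array's 75th percentile, was 5.78 on the senecionine array and 73.3 on the control array. Of all measured genes 17.7% were lower by 2-fold or more. Of the remaining markers 2 were detected after senecionine only and 2 in the control only. Stmn2, Gad1 and Slc17a7 were detected on neither array. The part of this neural RNA in the result for Fbll1 was not tested.

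Markers of liver cell types moved with the comparison, and their part in the ribosome biogenesis result was not tested. Of all measured genes 11.2% were higher and 17.7% lower by 2-fold or more. All 9 measured of 12 hepatocyte markers were below 0 on their representing probes and 7 were at least 2-fold lower (median log2 ratio -1.14). Fgb had a ratio of -0.34, but its second probe had one of 0.58. The summed signal of the 9 was 2397 on the senecionine array and 4419 on the control array in multiples of the 75th percentile. Of 7 measured cycling markers 3 were at least 2-fold higher and 0 lower (median 0.90, summed signal 22.1 and 11.0), with Tyms 3.23-fold and Ccna2 3.21-fold higher. Of 8 measured macrophage and neutrophil markers 4 were higher and 2 lower, of 7 stellate cell markers 3 higher and 1 lower, of 4 endothelial markers 0 higher and 3 lower, and of 2 bile duct markers both were higher.

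**Figure D5:**
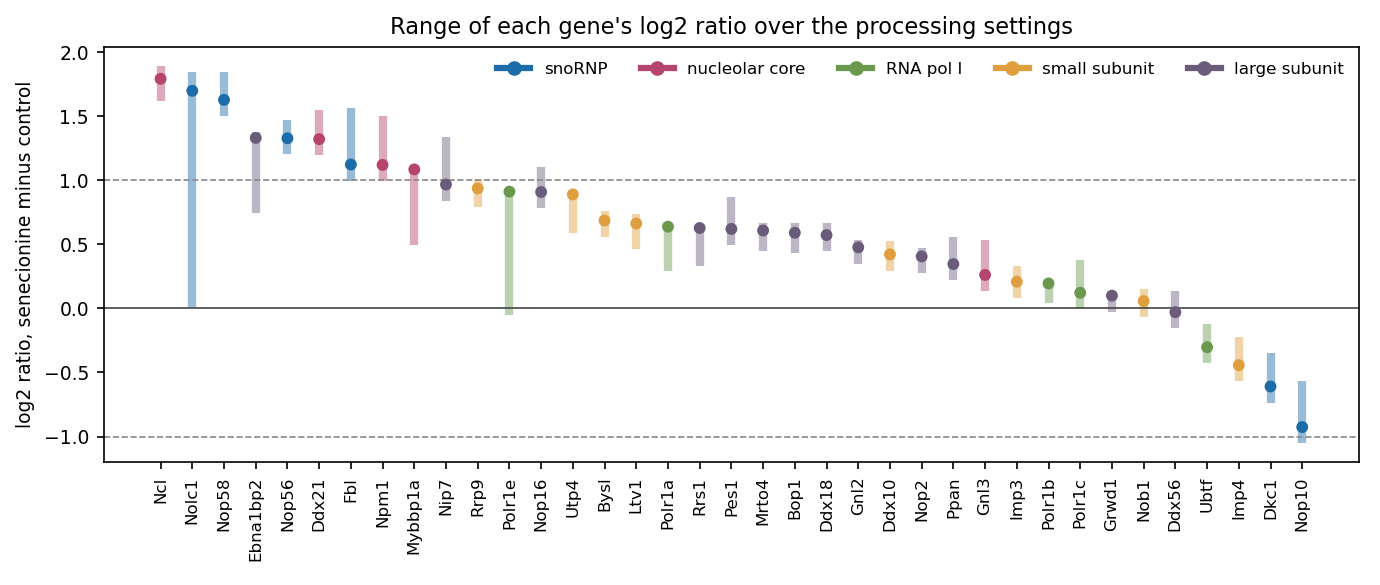
Log2 ratio, senecionine minus control (vertical axis), of the 37 measured genes ordered by ratio. Points are the reported values, bars run from the lowest to the highest value over 9 ways of scaling, background correction, filtering and probe choice, colours mark the roles and dashed lines 2-fold. Ncl, Nop58, Nop56 and Ddx21 stay above 1 over their whole bar, and the bar of Nolc1 reaches down to 0.01.

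Over the 9 ways of scaling, background correction, filtering and probe choice, 4 genes were past 2-fold in each: Ncl (lowest log2 ratio 1.62), Nop58 (1.502), Nop56 (1.20) and Ddx21 (1.20). The share of all measured genes past 2-fold in each of the 9 ways is not given here, so these 4 have no background to be set against. With median scaling, where 9.11% of all measured genes were higher by 2-fold or more and 21.3% lower, Fbl, Npm1 and Mybbp1a lay just under 2-fold (0.997, 0.99 and 0.96). Ebna1bp2 had a lowest ratio of 0.74 and Mybbp1a one of 0.49, both with normexp correction, where 7.86% of all measured genes were higher by 2-fold or more and 9.75% lower. Nop10 was past 2-fold on the lower side with median scaling (-1.05), and in no other. Dkc1 stayed below 0, between -0.74 and -0.35.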

How the data were processed

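The deposited intensity of each spot comes from Agilent Feature Extraction 10.7.3.1, per the file headers and the submitters' processing notes: background was subtracted and trends within the array were removed, without scaling between arrays. The authors also deposited a table of log2 values for 7404 probes, all at least 2-fold apart, with column medians of 6.10 for senecionine and 6.03 for control. All 7355 of its probes compared here differ in the direction found from the scanner signals. Since that table comes from the same 2 arrays and holds only probes at least 2-fold apart, this is no independent check.

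Log2 of the processed signal minus each array's 75th percentile was taken over non-control spots. Spots with an outlier flag (497 on the senecionine array, 522 on the control array) were left out, and spots of 1 probe were averaged, giving 40516 probes. Probes were named by unversioned RefSeq accession through the table of assembly GRCr8, which named 17250 probes. The brightest probe well above background on both arrays represents a gene. For a gene detected on 1 array, the bound divides the bright value by the lowest detected signal of the other array, or by the dim probe's signal where that is larger. This bound is nominal and no strict limit, since some undetected signals exceeded the lowest detected signal of their array. Precision is limited by there being 1 array per group. The counting was tested on simulated data.

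Named genes are the 8 highest and 8 lowest, the most distant of each role, those near 2-fold, those with disagreeing or undetected probes, a fixed set of core genes, and up to 4 per further list. The remaining listed genes, the genes with printed promoters, Snu13 and Polr3b were named after their values were seen. The genes and lists were chosen with earlier results of these data known. Alternatives are listed in the closing section. A further promoter motif that was looked at is not reported. The result for 1 gene of a further list is not reported here. Scaling alternatives were run in limma 3.58.1 under R 4.3.3, and all else in Python 3.11.15 with pandas 2.3.3 and numpy 2.4.6.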

Additional observations from a re-analysis of the deposited data

How the results depend on the processing

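No paired analysis was possible because each group is 1 array, and for the same reason no array could be left out. No alternative reversed a named gene past 2-fold. Of 97 comparisons of a summary value with an alternative, 73 stayed within 1.5 times (counts) or within the median spot error (medians) and 24 moved. Of 783 such comparisons for single genes, 650 stayed within it and 133 moved. The count of ribosome biogenesis genes at least 2-fold higher was 6 of 37 with median scaling, beside 9.11% of all measured genes, and 12 of 37 with cyclic loess, beside 12.6%. It was 12 of 42 with no detection filter and 12 of 40 with detection on at least 1 array, beside 17.5% and 22.6% of all genes. It was 14 of 14 in the authors' values, a list selected at 2-fold. It was 21 at 1.5-fold and 3 at 3-fold. The count at least 2-fold lower was 1 with median scaling (Nop10) and 2 at 1.5-fold. The median of these genes was 1.47 in the authors' values and between 0.46 and 0.67 otherwise. Set against the median of all measured genes it was 0.76 higher in the reported setting and 0.69 higher with quantile normalization. It was 0.72 higher with cyclic loess and 0.52 higher with normexp correction. Median scaling shifts all genes of an array alike, so it cannot change this difference.

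The snoRNP median was 1.45 with quantile normalization, 1.504 with normexp, 0.99 with the mean of detected probes, 0.57 with the probe nearest to no change and 1.68 in the authors' values. The nucleolar protein median was 1.504 with quantile normalization, 1.41 with cyclic loess and 1.53 in the authors' values. The small subunit median was 0.32 with no detection filter and 1.32 in the authors' values, where it is the value of Ltv1 alone. The large subunit median was 1.21 in the authors' values. Other assembly factors at least 2-fold higher numbered 5 of 58 with normexp (8.62%), close to the 7.86% of all measured genes. They numbered 24 of 78 with no detection filter, beside 17.5% of all genes. With detection on at least 1 array they numbered 24 of 73, beside 22.6%. In the authors' values they numbered 25 of 25. At 1.5-fold 27 of 58 were higher, beside 21.0% of all measured genes. At 3-fold 3 of 58 were higher (5.17%), close to the 4.69% of all measured genes. With no detection filter 1 of them was lower. The authors' values hold probes past 2-fold by construction, and the looser filters admit probes undetected on the control array. For the other changes the cause was not tested.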
